A study of Mus musculus with 14 samples.

Results

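Replication-dependent histone genes were described in whole fetal mouse brain by RNA sequencing. Members were all genes whose symbol begins with Hist1h, Hist2h, Hist3h or Hist4h, and the class was read from the rest of the symbol. The rule took 67 of the 41934 genes in the tables: 6 H1, 18 H2A, 18 H2B, 12 H3 and 13 H4 genes. By cluster, 54 were Hist1 genes on chromosome 13, 10 were Hist2 genes on chromosome 3, 2 were Hist3 genes on chromosome 11, and 1 was the Hist4 gene on chromosome 6. The libraries came from male fetuses on a C57BL/6J background, of which 6 were taken at E13.5 (4 of the Dio3+/+ genotype, 2 of Dio3-/-) and 8 at E18.5 (3 of Dio3+/+, 5 of Dio3-/-), and the fetuses were littermates from matings of Dio3+/- parents. Dio3 encodes the type 3 deiodinase, which inactivates thyroid hormones, and the Dio3-/- animals carry point mutations that abolish the activity of the enzyme but not the mRNA. The values analysed were means over all libraries of an age with both genotypes pooled, so no genotype comparison was made, and the pooled Dio3 mean normalized count (99.0 at E13.5 and 129 at E18.5) could not be used to check the labels.

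Replication-dependent histones are made mainly in S phase, when new DNA has to be packed into nucleosomes. H2A, H2B, H3 and H4 form the core of the nucleosome, and H1, the linker histone, binds the DNA where it enters and leaves. Most mRNAs of these genes have no introns and no poly(A) tail. They end shortly after a conserved stem-loop that is bound by SLBP and is needed for processing and for degradation at the end of S phase. In the fetal brain, the cells that pass through S phase are mainly progenitors, and neurons do not divide. The libraries were made from total RNA after removal of ribosomal RNA, a preparation that does not select for poly(A) tails.

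The stem-loop was looked for on the transcript strand as GG, any 2 bases, CT, any base, TT, any base, AG, any 2 bases and CC, within 200 bases after the stop codon, in GENCODE M21 transcripts. It was present in 44 of the 52 members annotated for at least 16 bases after the stop codon. 15 members had a shorter annotation, and the other 8 had no match in this window (Hist1h1a, Hist1h2bc, Hist1h2bq, Hist1h2br, Hist1h3g, Hist1h4a, Hist2h2be and Hist2h3b). Of 20981 coding genes, 52 held the letters, which is 0.248%, and 8 of these were not members. One of those 8 was H2afx, a histone gene outside the rule. The 44 matches were made of 6 distinct sequences, each with arms that pair over their whole length, and started 21 to 58 bases after the stop codon (median 31). They are shown to let the conserved and variable bases be compared, each in the member with the highest E13.5 level per kilobase, with the stem-loop in capitals and 5 bases on each side in lower case.
Hist3h2ba (H2B): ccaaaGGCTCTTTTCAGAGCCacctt
Hist1h4h (H4): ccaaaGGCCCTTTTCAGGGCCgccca
Hist1h2bb (H2B): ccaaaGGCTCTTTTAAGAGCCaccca
Hist2h4 (H4): ctaacGGCCCTTTTTAGGGCCaacca
Hist1h4j (H4): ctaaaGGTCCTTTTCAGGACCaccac
Hist2h2ac (H2A): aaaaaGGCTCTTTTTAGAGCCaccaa
The form shown for Hist3h2ba was found in 26 members. The forms of Hist1h4h and Hist1h2bb were found in 7 and 6 members, those of Hist2h4 and Hist1h4j in 2 members each, and that of Hist2h2ac in 1 member. All 7 members with the Hist1h4h form were H4 genes.

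Levels are given as CPM, here the mean normalized count relative to 1000000 of the summed mean normalized counts of all genes in the table of that age. For comparisons between genes they were divided by the exon length in kilobases, which ranged from 312 to 7425 bases among members. A gene was called measured where its mean normalized count reached 10. At E13.5, 55 of 67 members were measured, and 49 of them were measured at E18.5 too. All 13 H4 genes, 14 of 18 H2B genes, 10 of 12 H3 genes and 5 of 6 H1 genes reached 10 at both ages, against 13 of 18 H2A genes at E13.5 and 7 at E18.5. The 6 members that reached 10 only at E13.5 were all H2A genes (Hist1h2ad, Hist1h2af, Hist1h2ag, Hist1h2ah, Hist1h2ai and Hist1h2an), with mean normalized counts of 26.8 to 120.5 at E13.5 and 3.28 to 9.92 at E18.5. Nearest to the minimum, Hist1h2ai had 9.92 at E18.5 and Hist2h3c2 had 10.3. 10 members were listed at 0 at both ages (Hist1h2aa, Hist1h2ao, Hist1h2ap, Hist1h2bq, Hist1h2br, Hist2h2aa1, Hist2h2aa2, Hist2h2bb, Hist2h3b and Hist2h3c1). Hist1h1t, the H1 gene of the testis, had mean normalized counts of 6.93 and 2.92, and Hist1h2ba, an H2B gene of the testis, had 0.595 and 0.125.

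Reads that fall on several genes can be lost in counting, so the sequence that each member shares with other genes was measured. A clear window was a 75-base stretch of a member's transcript that occurred in no transcript of another gene and touched no exon of an overlapping gene on either strand. The median share of clear windows was 99.3% for H1, 75.4% for H4, 57.9% for H2B, 41.0% for H3 and 13.9% for H2A. All 18 H2A genes had exon bases inside another annotated gene, and 17 of them were overlapped by an annotated miRNA entry, and these miRNA entries were all listed at 0. Of the 13 members with under 10% clear windows, 8 were listed at 0, against 1 of 20 with 10 to 50% and 1 of 34 with at least 50%. The 5 members whose whole exon lay within exons of other genes were all among those listed at 0. Over the 57 members above 0, the rank correlation between clear windows and the E13.5 level per kilobase was 0.26, a description across genes that share libraries and sequence. Over the 49 members measured at both ages, the rank correlation between clear windows and the log2 ratio of E18.5 to E13.5 was 0.36. The median log2 ratio was -2.20 for the 17 such members with 10 to 50% clear windows and -1.93 for the 31 with at least 50%, and the 1 with under 10% had -2.69. The part of counting in the values of 0, in the low H2A levels and in the ratios between ages was not tested.

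**Figure D1:**
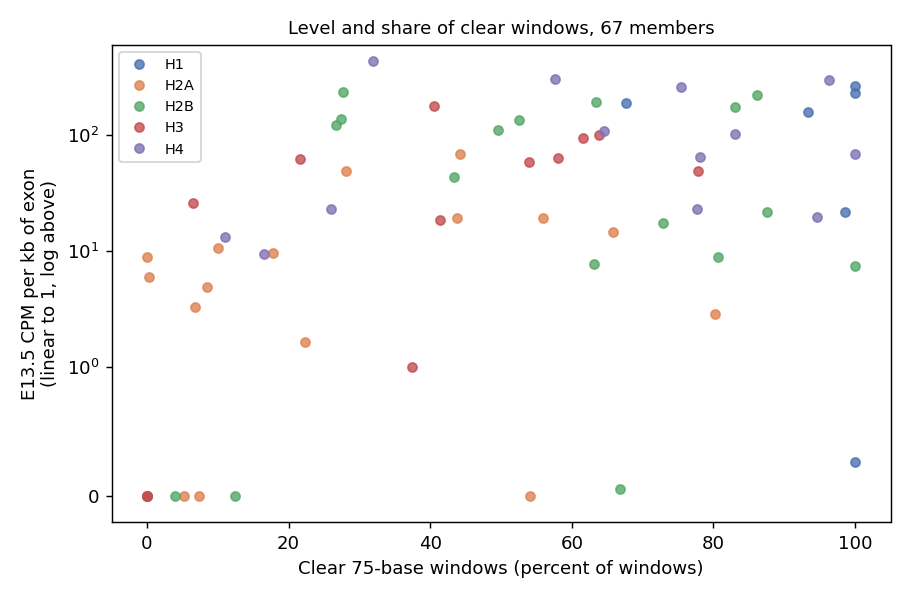
E13.5 CPM per kilobase of exon (linear up to 1, log above) against the percent of 75-base windows that are clear, one point for each of the 67 members, coloured by class. Of the 10 members at 0, 8 have under 10% clear windows, and the H2A genes lie towards the left (median 13.9%).

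Summed over members, the histone level was 3670 CPM at E13.5 and 1080 CPM at E18.5, which is 0.367% and 0.108% of the summed counts. The E18.5 sum was 3.40-fold lower (log2 ratio -1.77). Each age had 1 pooled value and was normalized on its own, so this difference has no replicate error and no test. The share of Dio3-/- libraries also differed between the ages, and age and genotype mix cannot be told apart here. The libraries were sequenced in 2 batches, and the study's methods do not give their split over the ages. In whole brain, fewer cells in S phase and less histone mRNA per cell cannot be told apart either. The markers of progenitors (Sox2, Pax6, Nes, Vim and Hes5) summed to 1493 CPM at E13.5 and 492 at E18.5, and all 5 were lower. The neuron markers (Tubb3, Map2, Dcx, Stmn2 and Syt1) summed to 6095 and 7710, and the glia markers (Olig1, Pdgfra, Aqp4 and Gfap) to 70.1 and 306. The erythroid markers summed to 865 and 49.3 CPM, of which 751 and 0.324 were Hbb-y, the embryonic globin. The germ cell markers (Prm1, Tnp1, Tnp2, Ddx4 and Sycp3) summed to 1.75 and 2.20, of which 1.36 and 1.53 were Ddx4. The liver markers summed to 9.59 and 3.90, and the muscle markers to 7.99 and 5.92. Among the muscle markers Acta1 was higher at E18.5 (1.70 and 4.43), while Myh3 (4.62 and 0.799) and Mylpf (1.67 and 0.687) were lower. The part of these cells in the histone levels was not tested.

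Of the 49 members measured at both ages, all 49 had a lower CPM at E18.5, as did 54.4% of all genes measured at both ages. 45 were at least 2-fold lower and 24 were at least 4-fold lower. Among all 17794 genes measured at both ages, 6.36% were at least 2-fold lower and 0.989% were at least 4-fold lower. The median log2 ratio of E18.5 to E13.5 was -1.99 for the members and -0.07 for all genes, and 1.02% of all genes were at or below the median member. The rank order of the members at E13.5 was close to that at E18.5 (rank correlation of CPM 0.95, n = 49 genes). This CPM was not divided by length. The exon length and clear windows of a gene are the same at both ages, which can raise this correlation.

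**Figure D2:**
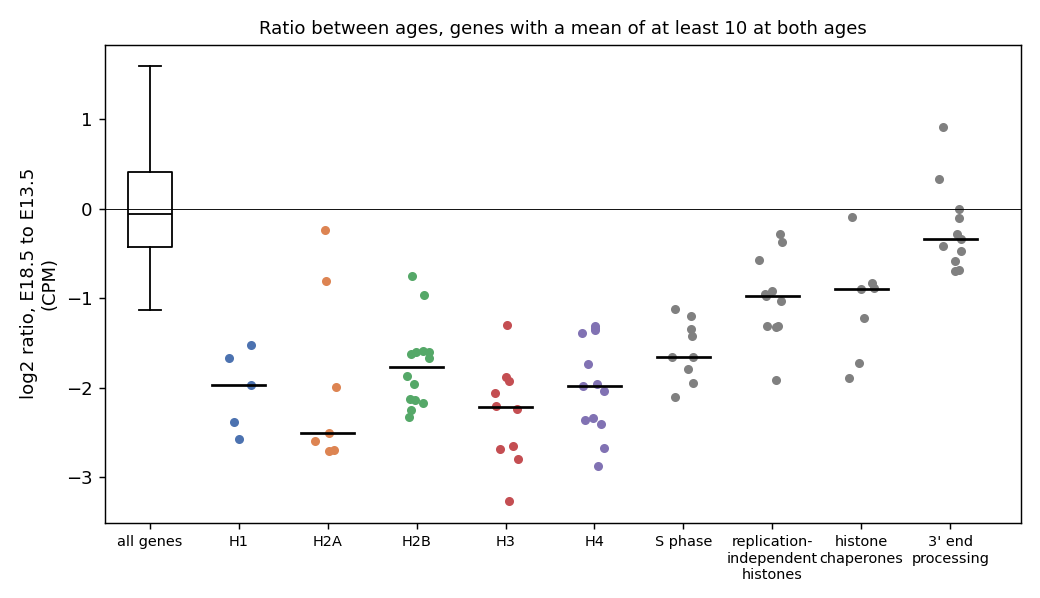
Log2 ratio of the E18.5 to the E13.5 CPM, for genes measured at both ages (mean normalized counts from 10). The box gives the median and quartiles of all 17794 genes with whiskers at the 5th and 95th percentiles, each point is a gene, and lines are medians, from -2.51 for H2A to -0.34 for the 3′ processing genes.

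Among the linker histones, Hist1h1e (ENSMUSG00000051627.3, chr13:23620629-23622558, minus strand) had the highest mean normalized count of all members at E13.5, 10390, and 2811 at E18.5. Its levels were 364 and 114 CPM. Per kilobase, Hist1h1a led the class with 263 CPM at E13.5 and 50.5 at E18.5, followed by Hist1h1b with 231 and 38.8 and Hist1h1e with 188 and 59.3. At E18.5 the order among these 3 was turned, with Hist1h1e above Hist1h1a and Hist1h1b, and with no replicate values these neighbours cannot be separated by their error. Hist1h1a and Hist1h1b had log2 ratios of -2.38 and -2.57, the latter the lowest of the class, and Hist1h1c, with levels of 246 and 85.4 CPM, the highest at -1.52. Hist1h1d had 163 and 41.5 CPM. The class summed to 1139 and 308 CPM (3.70-fold lower).

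H2A genes had the lowest sum, 131 CPM at E13.5 and 44.8 at E18.5. Per kilobase, Hist1h2ak had 69.1 and 12.1 CPM, Hist1h2ab had 48.7 and 7.46, and Hist1h2ae had 19.5 and 3.22. These 3 Hist1 genes had log2 ratios of -2.51, -2.71 and -2.60. Hist3h2a (chr11:58954685-58956830, plus strand) stood apart, with 31.2 CPM at E13.5 and 26.5 at E18.5. Its log2 ratio of -0.24 was the highest of all 49 members. It held 0.851% of the histone counts at E13.5 and 2.45% at E18.5, when it was the largest part of the H2A sum (26.5 of 44.8 CPM). Of its windows 65.8% were clear, and 33.0% of its exon bases lay in other genes. Among these was Trim17, with mean normalized counts of 130 at E13.5 and 88.5 at E18.5. The part of this overlap in the Hist3h2a values was not tested. Hist2h2ab, with a log2 ratio of -0.81, was the other H2A gene less than 2-fold lower, and only 17.8% of its windows were clear. The median log2 ratio of the 7 H2A genes measured at both ages was -2.51, whereas that of the H2A sums was -1.55. With the 6 H2A genes under 10 at E18.5 included, the median was -2.60. Larger fold differences than in any of the 49 were seen for Hist1h2ag (1.61 and 0.134 CPM) and Hist1h2ai (4.22 and 0.404). The same held for Hist1h2an (3.49 and 0.341) and Hist1h2ah (2.01 and 0.202). These values rest on E18.5 counts under the minimum.

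H2B genes summed to 802 and 256 CPM (3.14-fold lower), with a median log2 ratio of -1.77 over 14 genes. Hist1h2bn had 233 CPM per kilobase at E13.5 and 63.8 at E18.5, and 27.7% clear windows. Hist3h2ba (ENSMUSG00000056895.4, chr11:58948920-58949533, plus strand), close to Hist3h2a, had 221 and 113 CPM per kilobase with 86.1% clear windows, and a log2 ratio of -0.97. Hist1h2bb had 191 and 63.5. The lowest ratio was that of Hist1h2bk (log2 -2.33, 65.9 and 13.1 CPM), and the highest that of Hist2h2be (log2 -0.75, 19.7 and 11.7 CPM). Hist2h2be had 100% clear windows and was without a stem-loop match. Hist2h2be and Hist3h2ba were the H2B genes less than 2-fold lower.

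H3 genes summed to 484 and 108 CPM, and their share of the histone counts was 13.2% at E13.5 and 9.96% at E18.5. This class had the largest difference between sums, 4.50-fold. Hist1h3e led with 177 CPM per kilobase at E13.5 and 42.6 at E18.5, followed by Hist1h3c with 101 and 16.1 and Hist1h3a with 93.6 and 19.9. Hist1h3b (chr13:23752267-23752886, plus strand) had 11.6 CPM at E13.5 and 1.21 at E18.5. Its log2 ratio of -3.27 was the lowest of the 49 members measured at both ages. The highest ratio of the class was that of Hist2h3c2, at -1.30, from mean normalized counts of 29.6 and 10.3. The H3 members encode 2 distinct proteins, and 8 of them encode the same one.

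All 13 H4 genes encode one and the same protein of 103 residues, from 12 distinct coding sequences, and any pair of these genes had coding bases that were 85.3% to 100% identical. Their levels per kilobase nevertheless spanned 46.3-fold at E13.5 and 79.6-fold at E18.5. Hist1h4k had the highest level per kilobase of all members at E13.5, 437 CPM, and 111 at E18.5, over an annotated exon of 312 bases with 31.9% clear windows. Hist1h4h had 305 and 92.0. Hist1h4d (ENSMUSG00000061482.7, chr13:23581598-23582735, plus strand) had 296 and 118, with 96.3% clear windows, and was the member with the highest mean normalized count at E18.5 (134 CPM). At the other end, Hist1h4n had 9.44 and 1.48 CPM per kilobase and Hist1h4m 13.2 and 1.80, with 16.6% and 11.0% clear windows. Hist1h4m had the lowest ratio of the class (log2 -2.88) and Hist1h4c the highest (log2 -1.31). The class summed to 1115 and 364 CPM (3.06-fold lower).

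**Figure D3:**
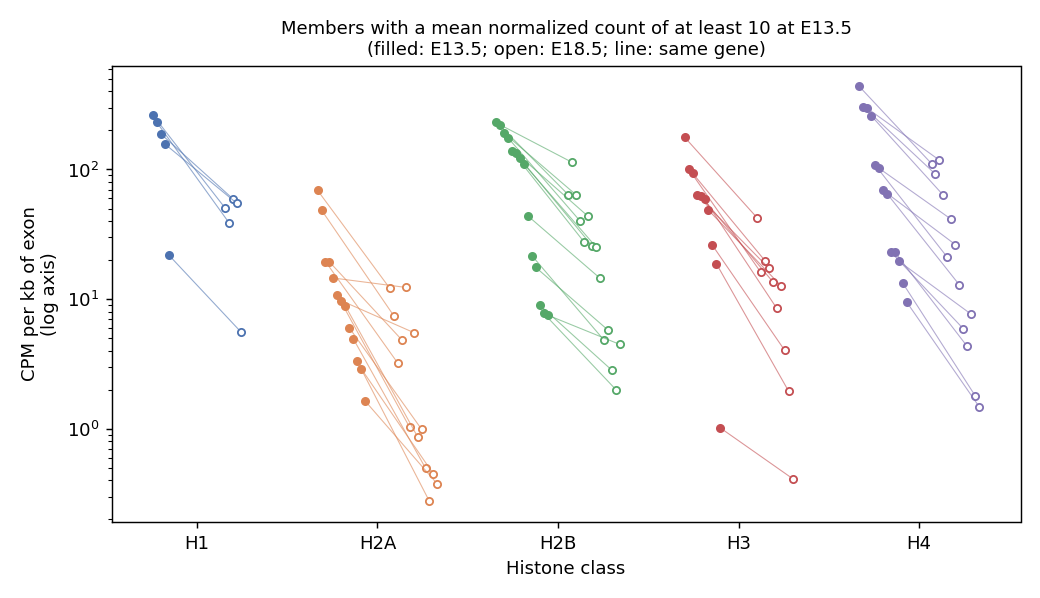
CPM per kilobase of exon (log axis) for the 55 members measured at E13.5, by class, with filled points for E13.5, open points for E18.5 and a line joining the values of a gene. H4 genes reach from 9.44 to 437 at E13.5, and the flattest line in H2A is Hist3h2a (14.6 and 12.3).

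Of the summed histone counts at E13.5, H1 held 31.0%, H4 30.4%, H2B 21.8%, H3 13.2% and H2A 3.58%. At E18.5 the shares were 28.5%, 33.7%, 23.7%, 9.96% and 4.15%. Per kilobase of exon, the shares at E13.5 and E18.5 were 17.6% and 15.6% for H1, 4.48% and 3.73% for H2A, 29.3% and 32.6% for H2B, 13.3% and 10.2% for H3, and 35.3% and 37.8% for H4. The H2A share was higher at E18.5 by counts and lower per kilobase, while the other 4 classes kept their direction. The 5 members with the highest counts held 35.8% of the histone total at E13.5 (Hist1h1e, Hist1h4d, Hist1h1c, Hist1h1a and Hist1h1b) and 41.4% at E18.5 (Hist1h4d, Hist1h1e, Hist1h1c, Hist3h2ba and Hist1h4h).

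The difference between the ages was smaller outside the large cluster. All 41 Hist1 genes measured at both ages were at least 2-fold lower at E18.5 (6.36% of all genes), with a median log2 ratio of -2.14. Of the Hist2 genes 3 of 5 were at least 2-fold lower (median -1.30), and of the Hist3 genes 0 of 2 (median -0.60). The other 5 Hist2 genes were listed at 0. Hist4h4, an H4 gene that stands alone on chromosome 6, had a log2 ratio of -1.36. Within Hist1, the H4 genes Hist1h4c and Hist1h4d had -1.31 and -1.33, while the median of the 11 Hist1 H4 genes was -2.04. The Hist1 share of the histone counts was 89.9% at E13.5 and 83.5% at E18.5, and the Hist3 share was 4.55% and 8.89%. None of these differences between clusters has an error. Within Hist1, which spans 21715763 to 23934851 on chromosome 13 (GRCm38), high and low members were interspersed, and members at 0 sat between Hist1h2bp and Hist1h2ah as well as at the end of the cluster.

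**Figure D4:**
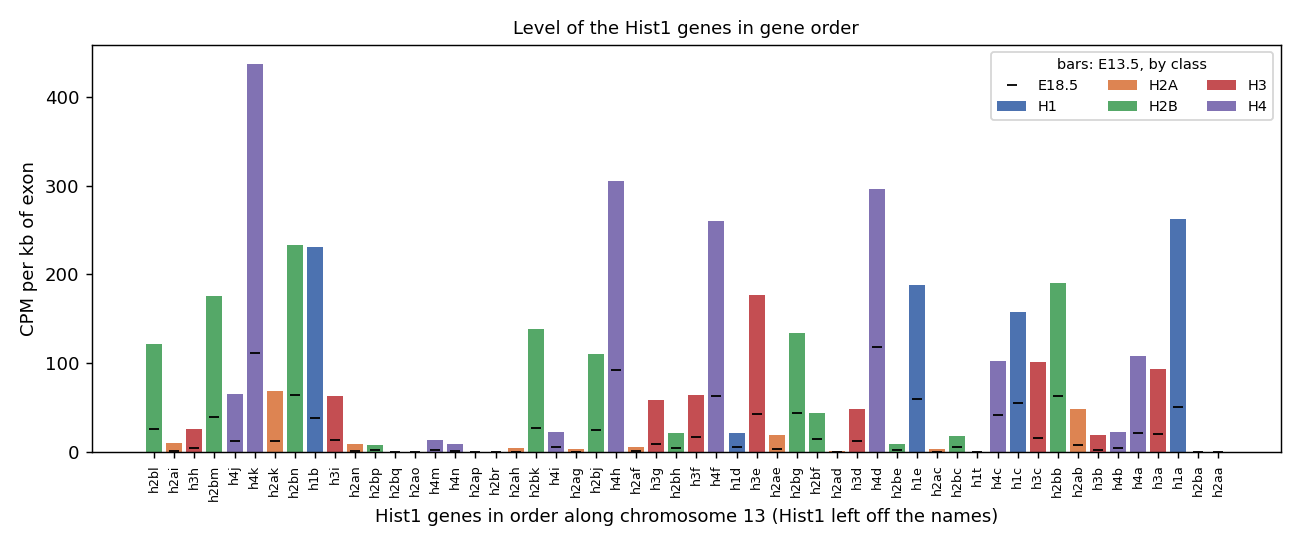
CPM per kilobase of exon of the 54 Hist1 genes in their order along chromosome 13, evenly spaced, with bars for E13.5 coloured by class and black dashes for E18.5. The highest bars are Hist1h4k (437), Hist1h4h (305) and Hist1h4d (296), and low members stand next to high ones.

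Neighbouring members on opposite strands were called a pair where their starts lay next to each other, at most 500 bases apart. Wider neighbours, such as the H2B gene Hist1h2bh with the H3 gene Hist1h3f, were left out. There were 12 pairs, with 175 to 305 bases between the starts, and all 12 paired an H2A with an H2B gene. In 9 pairs both genes were above 0. The level per kilobase at E13.5 was higher for the H2B gene in 7 of these 9, with a ratio of H2B to H2A from 0.389 to 33.3 (median 6.89). The exceptions were Hist2h2ac with Hist2h2be (19.4 and 7.53 CPM per kilobase) and Hist1h2an with Hist1h2bp (8.88 and 7.76). These exceptions depend on the division by exon length (520 and 2620 bases, and 393 and 706 bases). Not divided by length, the H2B gene was higher in both pairs (10.1 and 19.7 CPM, and 3.49 and 5.48 CPM). In the pair of Hist1h2ag and Hist1h2bj the values were 3.32 and 110.3, with 6.81% and 49.6% clear windows. The H2A gene also had fewer clear windows in Hist1h2ah with Hist1h2bk (8.46% and 27.4%) and Hist1h2ad with Hist1h2bf (22.3% and 43.4%). The same held for Hist1h2ai beside Hist1h2bl (26.7%). It had more in Hist1h2ak with Hist1h2bn (44.2% and 27.7%) and Hist1h2ac with Hist1h2bc (80.1% and 72.9%). The part of clear windows in the ratios of H2B to H2A was not tested. The closest pair above 0 was Hist1h2ae and Hist1h2bg, with 19.5 and 134 CPM per kilobase at E13.5 and 3.22 and 43.4 at E18.5, and with similar shares of clear windows (55.9% and 52.6%). The stretch between both starts, chr13:23571221-23571395 (GRCm38.p6, plus strand, read from the RefSeq promoter of Hist1h2bg), is shown because it lies upstream of both genes. Capitals mark CCAAT in either direction, the octamer ATTTGCAT and TATAAA.
Hist1h2ae/Hist1h2bg: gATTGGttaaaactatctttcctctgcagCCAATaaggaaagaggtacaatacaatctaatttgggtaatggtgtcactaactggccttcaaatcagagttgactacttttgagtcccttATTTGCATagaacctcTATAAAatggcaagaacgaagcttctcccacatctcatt
The octamer and TATAAA stand towards Hist1h2bg, and a CCAAT box lies at each of 2 places nearer to Hist1h2ae.

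**Figure D5:**
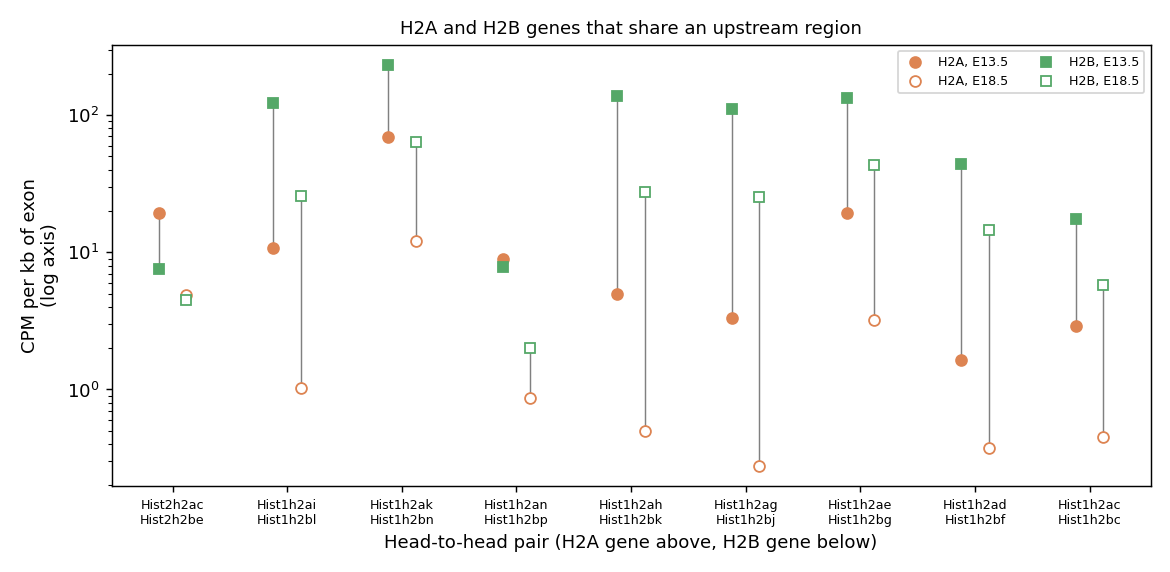
CPM per kilobase of exon (log axis) of the 9 H2A and H2B pairs with both genes above 0, with circles for H2A, squares for H2B, filled symbols for E13.5 and open symbols for E18.5. At E13.5 the square lies above the circle in 7 of 9 pairs.

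RefSeq promoters were matched for 62 of 67 members, and the 250 bases before the RefSeq start were searched on both strands. The RefSeq start can differ from the GENCODE start of the same gene, as it does for Hist1h2ak. TATAAA was present in 46.8% of member promoters and 12.4% of all 17492 coding promoters, and CCAAT in 82.3% and 36.3%. The octamer ATTTGCAT was present in 13 of 62 member promoters and in 1.61% of all, in 7 of 18 H2A and 6 of 16 H2B promoters and in no other class. CCAAT was found in all 18 H2A, all 16 H2B and all 6 H1 promoters, but in 8 of 10 H3 and 3 of 12 H4 promoters. The letters GGTCCG were present in 9 of 12 H4 promoters, 1 H2B and 1 H3 promoter, and in 8.50% of all promoters. The promoters of paired genes overlap, so these counts are not independent, and the same site can count for both genes of a pair. The octamer letters of Hist1h2ah and Hist1h2bk are the same bases. TATAAA in Hist1h2bn and Hist1h2bk was found only on the strand of their partners Hist1h2ak and Hist1h2ah, whose own 250 bases held none. Which gene of a pair a site belongs to was not tested. The promoter of Hist1h4d, the H4 gene with the highest count, is given to set beside that of the pair (chr13:23581318-23581567, GRCm38.p6, plus strand), with capitals for GGTCCG, for CCAAT in either direction and for TATAAA.
Hist1h4d: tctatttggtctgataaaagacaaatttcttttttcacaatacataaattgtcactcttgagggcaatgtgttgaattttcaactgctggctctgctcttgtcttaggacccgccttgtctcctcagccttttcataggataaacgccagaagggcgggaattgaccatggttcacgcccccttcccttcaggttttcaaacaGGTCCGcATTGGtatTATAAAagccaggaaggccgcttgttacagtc
The 3 motifs stand together near the start, in this order. The H2A and H2B pair above has no GGTCCG, and the Hist1h4d promoter has no octamer. These are matches of letters, and no binding was measured.

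Genes outside the rule that work with histones were described by lists. Among all genes measured at both ages, 6.36% were at least 2-fold lower at E18.5 and 54.4% were lower by any amount. The 11 genes listed as replication-independent histones were all lower at E18.5, 5 of them at least 2-fold, with a median log2 ratio of -0.97. One of the 5, H2afx (log2 ratio -1.31), held the stem-loop letters described above, so the name of this list fits it less well. Cenpa, the H3 variant of centromeres, had the lowest ratio (-1.91) and H2afj the highest (-0.29). H3f3b, which encodes H3.3, had 623 and 483 CPM. All 9 S phase genes were at least 2-fold lower (median -1.66), from Mcm2 of the replicative helicase (-2.11) to Pcna, the polymerase clamp (-1.12). Of the 7 histone chaperones 3 were at least 2-fold lower (median -0.90), from Asf1b at -1.89 to Rbbp7 at -0.09. The 11 genes for processing of the 3′ end and for transcription of histone genes had a median of -0.34. None was 2-fold lower, 9 of 11 had a ratio below 0 (54.4% of all genes), and Sympk, a scaffold of the cleavage complex, had the lowest ratio (-0.69). Slbp, which encodes the protein that binds the stem-loop, had mean normalized counts of 966 and 515 (log2 ratio of CPM -0.69), and Lsm11, a part of the U7 particle, had 66.3 and 125 CPM (log2 ratio 0.91).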

How the data were processed

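RNA sequencing of 14 brains was analysed (6 at E13.5, 8 at E18.5). According to the study's methods and the submitters' processing notes, single-end 75-base reads from rRNA-depleted total RNA were trimmed (cutadapt 3.1), aligned to GRCm38/mm10 with STAR 2.5.3a and counted per GENCODE VM22 gene by HTSeq, with its union mode and regardless of strand, so reads on overlapping genes can be lost. The authors adjusted the counts between 2 sequencing batches with ComBat-seq and normalized them within each age with DESeq2 1.30.1. This adjustment can move levels.

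The deposited signal used here is the authors' mean normalized count over all libraries of an age, with both genotypes pooled. The other deposited columns hold the authors' own Dio3-/- against Dio3+/+ comparison (fold change, its standard error, Wald statistic, p and adjusted p) and were not used. No columns of single libraries were used, so no error, test or paired analysis was possible, and no total is known for any single library. The study's methods state aligned reads only as a range over its first batch.

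Levels were scaled to 1000000 of the summed means over all genes of a table. All 67 members were matched by identifier to GENCODE M21 (41897 of 41934 genes matched), whose exons, transcripts and coding sequences were used, and to RefSeq promoters. A minimum mean normalized count of 10 was applied. The most abundant entry of both tables, Gm26917, held 4.62% of the sum at E13.5 and 2.22% at E18.5. The genes named in each class were the 3 highest per kilobase at E13.5, those with the highest and lowest ratio and those next to the minimum. Other genes were named after their values were seen. Members and lists were chosen with earlier results of these data known. Scripts used Python 3.11.15, pandas 2.3.3, numpy 2.4.6 and Biopython 1.88. Only the scaling and the log2 ratios were tested on simulated data.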

Additional observations from a re-analysis of the deposited data

How the results depend on the processing

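With 1 pooled value per age there is no replicate error, so a value was counted as moved where it changed by 1.5 times or more. Under 84 recomputed values, 70 did not move that far and 14 moved. Only the log2 ratios could change sign, since the counts, sums and shares are never negative, and 0 of the log2 ratios did. The H2A share was higher at E18.5 than at E13.5 by counts (4.15% and 3.58%), per kilobase of coding sequence and among members with at least 50% clear windows, but lower per kilobase of exon (3.73% and 4.48%) and per kilobase of clear windows (3.89% and 5.01%), so it has no settled direction. The H2A median log2 ratio of -2.51 became -1.55 as the ratio of sums. The H1 share at E13.5 was 17.6% per kilobase of exon, 19.5% per kilobase of coding sequence and 9.93% per kilobase of clear windows, and 15.6%, 17.5% and 9.40% at E18.5. The H2B share per kilobase of clear windows was 36.9% and 38.9%. The H2A share at E13.5 was 1.76% among the 34 members with at least 50% clear windows. Per kilobase of exon, the Hist2 share was 2.18% and 3.11% and the Hist4 share 0.400% and 0.571%. These shares differ because the lengths used as divisors, or the members kept, differ. The alternatives that use clear windows or coding sequence were chosen after seeing the data. The repeat search over a genome was not run, and a search over transcripts took its place. No paired analysis was possible because the values are pooled over libraries, and for the same reason no replicate could be left out. The depth of single libraries is not given, and sequence shared between genes limits what the H2A values can show.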

Other observations

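Members that hold the stem-loop also differed in where their annotated transcript ends. This split was made after the data were seen. Of the 44, 22 are annotated for at least 100 bases beyond the stem-loop, and 22 end earlier. Among those measured at both ages, the 20 with a long annotated end had a median log2 ratio of E18.5 to E13.5 of -1.67 (range -2.70 to -0.24) and the 16 with a short end had one of -2.19 (range -3.27 to -1.59). By class, the medians with long and short ends were -1.37 (6 genes) and -2.41 (5 genes) for H4, -1.91 (4 genes) and -2.65 (3 genes) for H3, and -1.65 (4 genes) and -2.04 (6 genes) for H2B. For H2A the order was the other way round, with -2.60 (3 genes) and -2.35 (2 genes). The H4 genes with a long annotated end included Hist1h4c, Hist1h4d, Hist2h4 and Hist4h4, with log2 ratios of -1.31, -1.33, -1.39 and -1.36, and Hist1h4j with -2.33. This split overlaps with that by cluster. Outside Hist1, the long-ended members measured at both ages were Hist2h4, Hist4h4, Hist2h3c2, Hist3h2ba and Hist3h2a. The only short-ended one was Hist2h2ac (log2 ratio -1.99). Which end the counted reads came from was not measured, and the difference between long and short ends has no test.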
